A study of Homo sapiens with 9 samples.

Results

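The retinoblastoma pocket proteins, the MuvB complex and the activators MYBL2 and FOXM1 were described at the RNA level in MDA-MB-231 cells after transfection with siRNAs against SKP2. The set holds 10 genes, chosen by name and matched by Ensembl identifier among the 58395 genes of each count file: the pocket proteins RB1, RBL1 (p107) and RBL2 (p130), the MuvB core genes LIN9, LIN37, LIN52, LIN54 and RBBP4, and the MuvB-binding activators MYBL2 (B-Myb) and FOXM1. MDA-MB-231 is an established human cell line of triple-negative breast cancer, grown here in DMEM with fetal bovine serum. There were 3 groups of 3 libraries of total RNA, each taken 96 h after reverse transfection: a nontargeting control siRNA (NC), a first siRNA against SKP2 (SKP2-1) and a second one (SKP2-2). All 3 groups therefore carried an siRNA, and no untransfected cells were compared. The title and sample labels name SKP2, the substrate receptor of an SCF ubiquitin ligase, whereas the design text names ZIP7 (gene SLC39A7), a zinc transporter. The labels do not say whether replicates came from separate cultures, so p-values measure the spread between these libraries, which may be technical.

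Pocket proteins bind E2F transcription factors. In quiescent and early G1 cells, RBL2 or RBL1 joins E2F4 or E2F5, a DP subunit and the MuvB core in the DREAM complex, which keeps cell cycle genes silent. When cyclin-dependent kinases phosphorylate the pocket proteins they leave, RB1 releases the activator E2Fs, and G1/S genes are transcribed. Later in the cycle the MuvB core binds MYBL2 and then FOXM1, and these complexes activate G2/M genes through the CHR element. RBL1, MYBL2, FOXM1 and several MuvB genes are themselves known as cell cycle regulated genes. Phosphorylation, protein levels and complex assembly were not measured in these libraries.

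The start regions of the members were read from RefSeq promoter windows of 300 bases, from 250 before to 50 after the start (GRCh38.p14). Windows within 5000 bases of the gene's annotated start were found for 8 of the 10 members, 14 windows in all, and FOXM1 and RB1 were not analysed here. The letters TTCCCGC with the variant forms TTGGCGC, then TTCGCGC and lastly TTGCCGC, all forms of the E2F recognition sequence, were searched on both strands, and 12.9% of all 34943 windows held at least 1 of them. Among the members' windows, 5 of 14 held these letters, in 4 genes: RBL1, LIN9, LIN52 and RBBP4. The stretches that hold them are shown 5′ to 3′ on the gene's strand, with the E2F letters in capitals. Only the forms named above were searched, so a member's window without them may still hold another form. The RBL1 stretch lies at chr20:37096000-37096029 (minus strand), LIN9 at chr1:226309504-226309533 (minus), LIN52 at chr14:74084920-74084949 (plus) and RBBP4 at chr1:32651154-32651183 (plus).
RBL1: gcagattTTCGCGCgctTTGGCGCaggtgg
LIN9: cactcggaacaaacagcctgcagTTCCCGC
LIN52: tggaacctcgttTTCCCGCcgacggttggc
RBBP4: attggctgatgTTGGCGCGAAggtgcgcga
In RBL1 the letters began 25 and 15 bases before the start, in LIN9 7 bases before the start of 1 of its 3 windows, and in LIN52 24 bases before. In RBBP4 a match on each strand overlapped, 43 and 40 bases before the more upstream of its annotated starts, and both of its windows held this site. In GENCODE 29 all 4 stretches fall in bases annotated as exon, of the gene itself or of a neighbour.

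Letters of other elements were rarer or more common in the background. The CHR letters TTTGAA, or the variant TTCGAA, were in 16.4% of all windows and in 5 of the members' 14, those of RBL2, LIN9, LIN37 and LIN54. Both LIN54 windows overlap and hold the same CHR site, which is thus counted in each. CCAAT was in 34.6% of all windows and in 5 of the members', those of RBL2, LIN37, LIN52 and RBBP4. Both RBBP4 windows share a CCAAT site, which is likewise counted in each. The forkhead letters TAAACA were in 12.3% of all windows and in 2 of the members', both of RBL2. The MYBL2 window held none of these letters, which says only that they are not in those 300 bases. Letter matches are descriptions and not binding sites, and no binding was measured.

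Library totals were 35.5 to 49.9 M gene counts, and HTSeq set aside as ambiguous, between genes, 3.87 to 3.97% of reads. The labels were checked on the targeted gene: SKP2, in CPM (counts per 1000000 gene counts of the library, after TMM scaling), was at 57.5, 63.8 and 64.9 in NC, at 3.51, 3.31 and 3.91 with SKP2-1 and at 6.09, 5.69 and 6.11 with SKP2-2. This is 17.29 times lower with SKP2-1 and 10.41 times lower with SKP2-2 (edgeR quasi-likelihood test, Benjamini-Hochberg adjusted p = 8.64e-12 and 5.35e-12). SLC39A7 was at 342 ± 8.38 CPM in NC, 343 ± 1.07 with SKP2-1 and 364 ± 10.3 with SKP2-2 (SD, n = 3), and it passed the test with neither siRNA (edgeR adjusted p = 0.936 and 0.0868), although with library-size scaling it did with SKP2-2 (log2 0.13, edgeR adjusted p = 0.0138). The 5 mesenchymal markers of MDA-MB-231 (VIM, CD44, EGFR, AXL and CAV1) summed to 5900 to 6010 CPM in NC, 5770 to 5830 with SKP2-1 and 6640 to 6930 with SKP2-2. Within this sum the markers went opposite ways with SKP2-1: AXL was at a mean of 1400 CPM in NC and 630 with SKP2-1, CD44 at 764 and 1170, and EGFR at 533 and 679. The 6 luminal markers summed to 31.6 to 32.9, 30.4 to 31.7 and 22.7 to 26.3 CPM, with ESR1, PGR and FOXA1 under 1 CPM in every library. The 4 immune markers summed to 1.25 to 1.88, 3.26 to 3.42 and 2.84 to 3.15 CPM, and the 4 endothelial markers to 6.91 to 7.96, 15.6 to 17.4 and 7.87 to 9.36 CPM. The part of these marker differences in the results was not tested. NC replicate 1 and SKP2-2 replicate 3 deviated together from their groups (r = 0.88 over genes), and so did NC replicate 3 and SKP2-2 replicate 1 (r = 0.86). Results on the members are therefore also given without NC replicate 1 and SKP2-2 replicate 3. The other pair, NC replicate 3 and SKP2-2 replicate 1, was not left out together. Replicates were less alike in NC and with SKP2-2 than with SKP2-1. The chi-square per gene between replicates was 7.71 to 48.9, 8.59 to 26.1 and 2.44 to 2.53, while the fit shared 1 estimate of the spread over the groups. In bulk RNA, fewer cells of one cycle stage and less RNA per cell cannot be told apart, which holds for every result here.

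With SKP2-1, 9 of the 10 genes fell and none rose. The largest falls were those of FOXM1 (2.19 times lower), MYBL2 (2.14 times) and RBL1 (2.04 times), the smallest those of RB1 (1.19 times) and RBL2 (1.20 times), and LIN37 did not pass the test. For comparison, 20.5% of all 16575 genes tested were called lower and 25.0% higher in this comparison, at an edgeR adjusted p below 0.05. The members' median log2 fold change was -0.73, against 0.02 over all genes tested. NC and SKP2-1 libraries did not overlap for 9 members, where 54.8% of all genes tested did not overlap in either direction. Without NC replicate 1 and SKP2-2 replicate 3, 9 members again fell. The members, and all gene lists below, were chosen with earlier results of these data known, which bears on every count beside the shares of all genes.

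With SKP2-2, 7 of the 10 genes fell and none rose. LIN9 (1.52 times lower), FOXM1 (1.38 times) and RBBP4 (1.36 times) fell most, and LIN52, MYBL2, RBL1 and LIN54 fell by 1.15 to 1.26 times. RB1, RBL2 and LIN37 did not pass the test. Over all genes tested, 24.1% were called lower and 25.2% higher. The median log2 fold change of the members was -0.22, against 0.03 over all genes. NC and SKP2-2 libraries did not overlap for 7 members, against 53.6% of all genes in either direction. Without NC replicate 1 and SKP2-2 replicate 3, 8 members fell, the added one being RB1. Both siRNAs were compared with the same NC libraries, so the 2 comparisons are not independent.

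**Figure D1:**
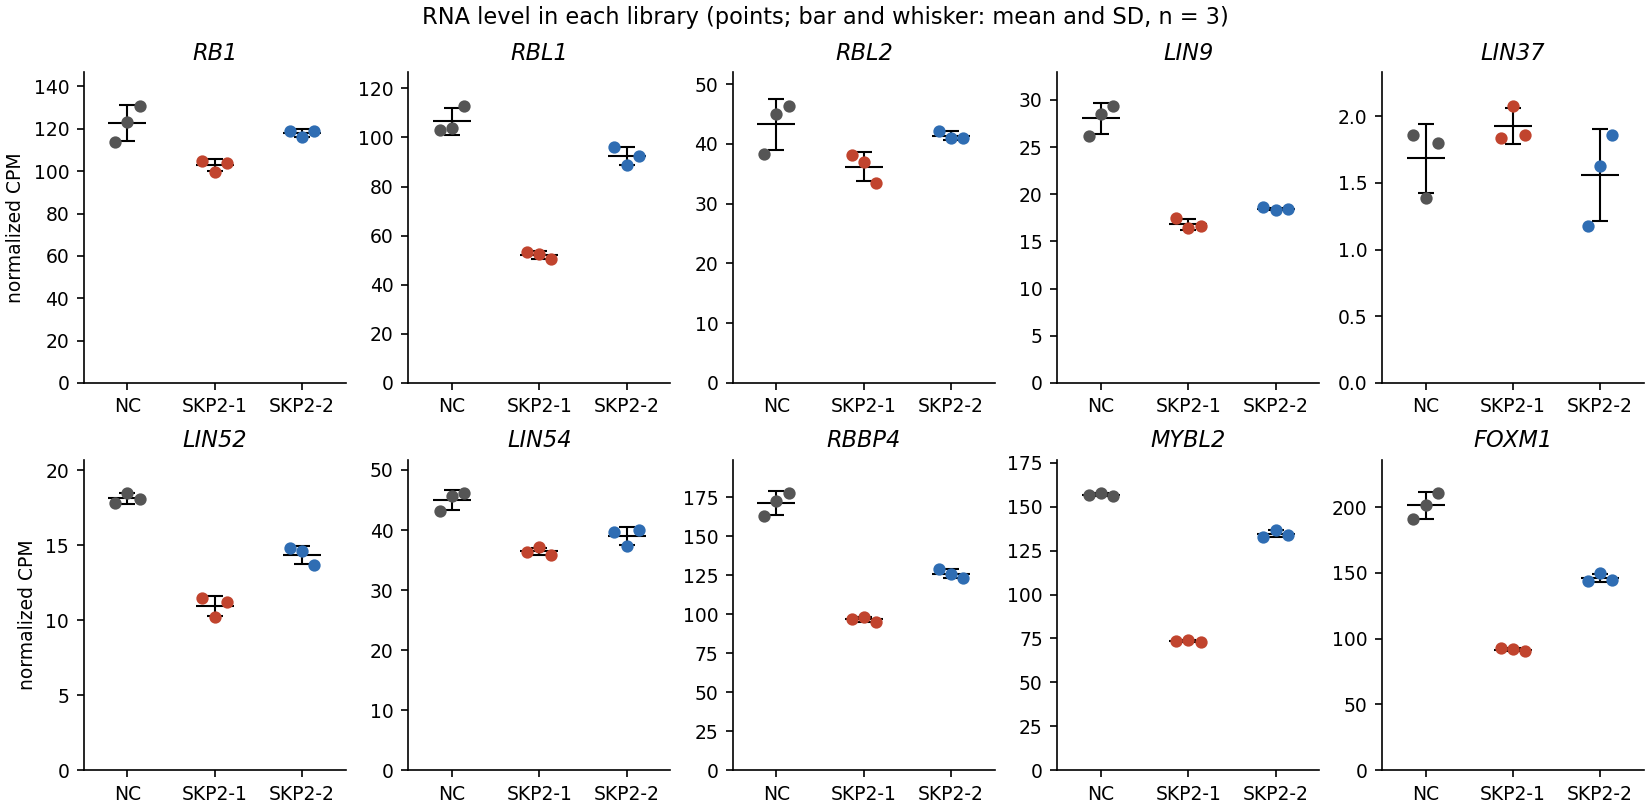
Normalized CPM (y axis, from 0) of each of the 10 genes in the 9 libraries (points), with the mean and SD of each group (bar and whisker, n = 3). For RBL1, MYBL2 and FOXM1 the SKP2-1 libraries lie below all others and the SKP2-2 libraries between them and NC. For LIN9 both knockdown groups lie close together, between 16.4 and 18.6 CPM, and for LIN37 all groups overlap.

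Among the pocket proteins RBL1 changed most. RBL1 (ENSG00000080839, chromosome 20, 36996349 to 37095995, minus strand, GRCh38), a pocket protein whose level is known to follow E2F activity, was at 103, 104 and 113 CPM in NC, at 53.5, 52.7 and 50.4 CPM with SKP2-1 and at 96.0, 88.7 and 92.3 CPM with SKP2-2. All SKP2-1 libraries lay far below the others, and the SKP2-2 libraries lay just below NC without overlap. Its log2 fold change was -1.03 ± 0.05 (SE) with SKP2-1 (edgeR adjusted p = 4.75e-09) and -0.21 ± 0.05 with SKP2-2 (edgeR adjusted p = 0.00425).

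RB1 (ENSG00000139687, chromosome 13, 48303726 to 48599436, plus strand), which binds the activator E2Fs and is not part of DREAM, was at 114, 123 and 131 CPM in NC. It was at 105, 99.6 and 104 CPM with SKP2-1 and at 119, 116 and 119 CPM with SKP2-2. The SKP2-1 libraries lay below NC, whereas the SKP2-2 libraries lay within the NC range. RB1 fell with SKP2-1 by 0.26 ± 0.05 on the log2 scale (edgeR adjusted p = 0.00102). With SKP2-2 its log2 fold change was -0.06 ± 0.05 (edgeR adjusted p = 0.38). This value turned on NC replicate 1, the lowest NC library for every member except LIN37 and MYBL2: without it RB1 passed the test with SKP2-2 (log2 fold change -0.12, edgeR adjusted p = 0.025).

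RBL2 (ENSG00000103479, chromosome 16, 53433977 to 53491649, plus strand), the pocket protein that dominates DREAM in quiescent cells, was at 38.3, 45.0 and 46.4 CPM in NC. It was at 38.1, 36.9 and 33.5 CPM with SKP2-1 and at 42.2, 40.9 and 41.0 CPM with SKP2-2. The SKP2-1 libraries lay below NC by a narrow margin, and the SKP2-2 libraries lay inside the NC range. The log2 fold change was -0.26 ± 0.07 with SKP2-1 (edgeR adjusted p = 0.0103) and -0.06 ± 0.07 with SKP2-2 (edgeR adjusted p = 0.49). RBL2 was the least secure of the called members: without SKP2-1 replicate 3 the SKP2-1 call was lost (log2 fold change -0.21, edgeR adjusted p = 0.0622), and without NC replicate 1 the SKP2-2 call was gained (-0.15, edgeR adjusted p = 0.0342). Its exons overlap those of AKTIP on the opposite strand over 610 bases, and the strand used in counting is not given in the sources used here. AKTIP was at 14.3, 13.3 and 13.1 CPM in NC, SKP2-1 and SKP2-2 and passed the test with neither siRNA (edgeR adjusted p = 0.272 and 0.164).

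The unequal falls changed the make-up of the pocket protein RNA. Per kb of exon, RBL1 gave 43.0, 40.8 and 41.6% of the summed RNA of RB1, RBL1 and RBL2 in the NC libraries, 29.5, 30.2 and 29.1% with SKP2-1, and 40.0, 38.7 and 39.2% with SKP2-2. No library of one group reached into another. RB1's share was 44.4 ± 0.381% in NC, 53.8 ± 1.33% with SKP2-1 and 46.4 ± 0.607% with SKP2-2 (SD, n = 3), again without overlap. RBL2's share was 13.8 ± 0.704% in NC, 16.7 ± 0.825% with SKP2-1 and 14.3 ± 0.162% with SKP2-2. The SKP2-2 and NC libraries overlapped for RBL2's share (exact two-sided permutation p = 0.3). RBL2 RNA per RBL1 RNA rose from 0.33 ± 0.0252 in NC to 0.563 ± 0.0203 with SKP2-1 and was 0.364 ± 0.00927 with SKP2-2. Of 8 such ratios computed, every other comparison between groups gave an exact permutation p of 0.1, the smallest that 3 libraries against 3 can give, so none could pass a threshold of 0.05, before or after adjustment.

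**Figure D2:**
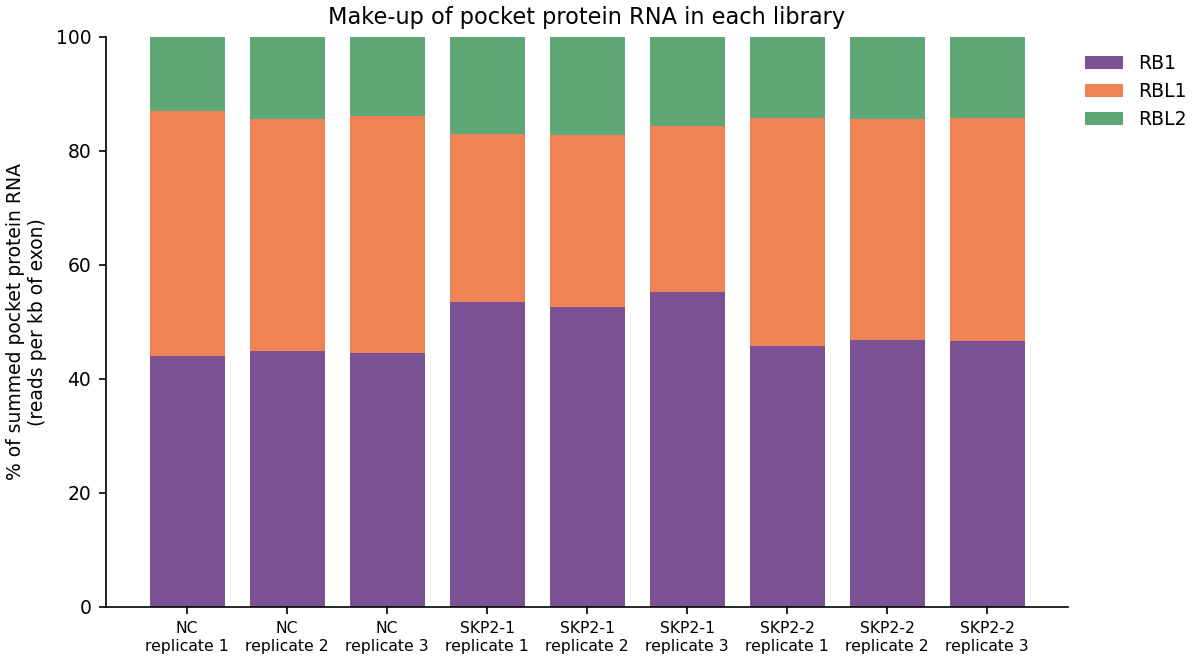
Share (%) of RB1, RBL1 and RBL2 in the summed RNA of these genes, in reads per kb of exon, for each of the 9 libraries (stacked bars). RBL1 holds 40.8 to 43.0% in NC and 29.1 to 30.2% with SKP2-1, where RB1 holds 52.6 to 55.2%.

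The MuvB core genes fell with both siRNAs apart from LIN37. RBBP4 (ENSG00000162521, chromosome 1, 32651142 to 32686211, plus strand), a histone-binding WD40 protein shared with other chromatin complexes such as NuRD and PRC2, was at 163, 173 and 178 CPM in NC. It was at 97.1, 98.0 and 95.0 CPM with SKP2-1 and at 129, 126 and 123 CPM with SKP2-2. The 3 groups were separate, with SKP2-2 midway. RBBP4 fell by 0.82 ± 0.04 on the log2 scale with SKP2-1 (edgeR adjusted p = 9.04e-09) and by 0.44 ± 0.04 with SKP2-2 (edgeR adjusted p = 2.43e-06). Reads of near-identical copies may be split: of 7 RBBP4 pseudogenes in the annotation, 6 were under 1 CPM in every library. RBBP4 also shares 1706 exon bases with SYNC on the opposite strand, and SYNC moved the other way, from 3.54 CPM in NC to 5.65 with SKP2-1 and 5.28 with SKP2-2 (edgeR adjusted p = 0.000217 and 0.000686). ZBTB8OS, which starts 239 bases from RBBP4 on the opposite strand, had log2 fold changes of -0.09 and 0.24 (edgeR adjusted p = 0.369 and 0.0174), and thus rose with SKP2-2 where RBBP4 fell.

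LIN9 (ENSG00000183814, chromosome 1, 226231149 to 226309869, minus strand), a scaffold of the core needed for MYBL2 binding, was at 26.2, 28.5 and 29.4 CPM in NC, 17.5, 16.4 and 16.6 CPM with SKP2-1 and 18.6, 18.3 and 18.4 CPM with SKP2-2. Every knockdown library lay below every NC library, and the knockdown groups lay next to each other. The log2 fold change was -0.73 ± 0.06 with SKP2-1 (edgeR adjusted p = 5.11e-07) and -0.60 ± 0.06 with SKP2-2 (edgeR adjusted p = 2.56e-06). LIN9 thus had the largest fall of the members with SKP2-2, which left 65.8% of the NC level.

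LIN52 (ENSG00000205659, chromosome 14, 74084796 to 74201235, plus strand), the subunit whose phosphorylation by DYRK1A is known to favour pocket protein binding over MYBL2, was at 17.8, 18.5 and 18.1 CPM in NC. It was at 11.5, 10.2 and 11.2 CPM with SKP2-1 and at 14.8, 14.6 and 13.7 CPM with SKP2-2. The groups did not overlap. LIN52 fell by 0.72 ± 0.07 on the log2 scale with SKP2-1 (edgeR adjusted p = 1.55e-06) and by 0.33 ± 0.07 with SKP2-2 (edgeR adjusted p = 0.00106). ALDH6A1, which starts 303 bases from LIN52 on the opposite strand, had log2 fold changes of -0.17 and -0.08 (edgeR adjusted p = 0.0253 and 0.231).

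LIN54 (ENSG00000189308, chromosome 4, 82909973 to 83012926, minus strand), the subunit that contacts CHR DNA, was at 43.1, 45.6 and 46.2 CPM in NC, 36.4, 37.1 and 35.9 CPM with SKP2-1 and 39.6, 37.3 and 40.0 CPM with SKP2-2. All knockdown libraries lay below NC, by a smaller step than for LIN9, LIN52 and RBBP4 with SKP2-1. Its log2 fold change was -0.30 ± 0.05 with SKP2-1 (edgeR adjusted p = 0.000273) and -0.21 ± 0.05 with SKP2-2 (edgeR adjusted p = 0.00405).

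LIN37 (ENSG00000267796, chromosome 19, 35748361 to 35754519, plus strand), a subunit known to be needed for repression by DREAM, rested on few reads, 48 to 92 per library. It was at 1.86, 1.39 and 1.80 CPM in NC, 1.84, 2.08 and 1.86 CPM with SKP2-1 and 1.18, 1.63 and 1.86 CPM with SKP2-2. The groups overlapped in every comparison. The log2 fold change was 0.20 ± 0.17 with SKP2-1 (edgeR adjusted p = 0.385) and -0.10 ± 0.18 with SKP2-2 (edgeR adjusted p = 0.687). These errors are wide beside the falls of LIN54 (0.30 and 0.21), and the smallest fall detectable at this depth was not computed. The value is uncertain, since the exons of LIN37 share 752 bases with a gene on the same strand (ENSG00000188223) and 1180 bases with an antisense gene (ENSG00000267439). How reads in the shared exons were assigned depends on the counting settings, which are not given in the sources used here. The same-strand gene was at 0 counts in all libraries.

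The activators MYBL2 and FOXM1 fell with both siRNAs, and further with SKP2-1. MYBL2 (ENSG00000101057, chromosome 20, 43667019 to 43716496, plus strand), the Myb protein that joins MuvB from S phase on, was at 157, 158 and 156 CPM in NC, 73.3, 74.2 and 73.2 CPM with SKP2-1 and 133, 137 and 134 CPM with SKP2-2. The groups were tight and separate, with SKP2-2 much nearer to NC than to SKP2-1. MYBL2 fell by 1.10 ± 0.04 on the log2 scale with SKP2-1 (edgeR adjusted p = 2.7e-10), leaving 46.8%, and by 0.23 ± 0.04 with SKP2-2 (edgeR adjusted p = 0.000236), leaving 85.5%.

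FOXM1 (ENSG00000111206, chromosome 12, 2857681 to 2877155, minus strand), the forkhead factor that joins MuvB in G2, was at 191, 202 and 211 CPM in NC, 92.6, 92.2 and 90.4 CPM with SKP2-1 and 144, 150 and 145 CPM with SKP2-2. All groups were separate. FOXM1 fell by 1.13 ± 0.05 on the log2 scale with SKP2-1 (edgeR adjusted p = 6.78e-10), leaving 45.6%, and by 0.46 ± 0.04 with SKP2-2 (edgeR adjusted p = 1.87e-06), leaving 72.6%. Of its neighbours, RHNO1, which starts 897 bases away on the opposite strand, had log2 fold changes of -0.54 and -0.37 (edgeR adjusted p = 1.57e-05 and 0.000338), and TULP3, 68 bases away, of -0.16 and -0.31 (edgeR adjusted p = 0.0273 and 0.000328). ITFG2, which shares 781 exon bases with FOXM1 on the opposite strand, was at 7.14 to 8.18 CPM as group means, with log2 fold changes of -0.09 and -0.20 (edgeR adjusted p = 0.369 and 0.0397).

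The activators were also set against the MuvB scaffold within each library. MYBL2 per LIN9, each per kb of exon, was 9.61, 8.88 and 8.52 in NC, 6.71, 7.24 and 7.04 with SKP2-1 and 11.4, 12.0 and 11.6 with SKP2-2. The ratio was thus below NC with SKP2-1 and above NC with SKP2-2, with no overlap (exact permutation p = 0.1 for each comparison, the smallest possible). FOXM1 per LIN9 was 6.52 ± 0.094 in NC, 4.94 ± 0.147 with SKP2-1 and 7.19 ± 0.221 with SKP2-2 (SD, n = 3), in the same order. LIN9 fell most of the members with SKP2-2, and ratios to other MuvB genes were not computed. With SKP2-2, FOXM1 (log2 -0.46) fell about as much as RBBP4 (-0.44) and more than LIN52 (-0.33) and LIN54 (-0.21). MYBL2 (-0.23) fell less than RBBP4 and LIN52 and about as much as LIN54. For FOXM1 the ratio above NC thus holds against LIN9 and not against the MuvB core as a whole. For MYBL2 the fold changes point the same way for RBBP4 and LIN52 as for LIN9, but not for LIN54.

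**Figure D3:**
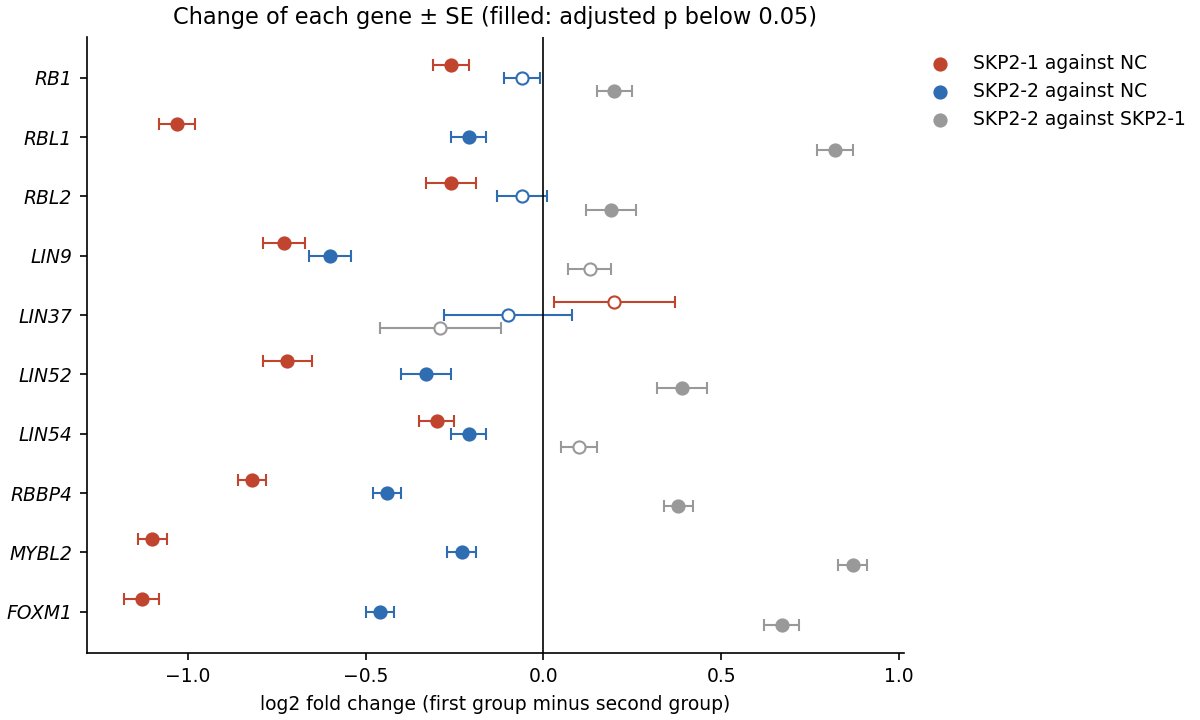
Log2 fold change (x axis) ± SE of each gene for SKP2-1 against NC, SKP2-2 against NC and SKP2-2 against SKP2-1, with filled points for an edgeR adjusted p below 0.05. The SKP2-1 points of RBL1, MYBL2 and FOXM1 lie beyond -1, their SKP2-2 points between -0.46 and -0.21, and LIN37 has the widest error bars.

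The siRNAs were then compared with each other. With SKP2-2, 7 of the 10 genes were higher than with SKP2-1 and none was lower, where 25.2% of all genes tested were called higher and 25.3% lower. The median log2 difference was 0.29, against 0.03 over all genes tested, and libraries did not overlap for 9 members, against 64.0% of all genes. The differences were largest for MYBL2 (1.83 times higher, log2 0.87 ± 0.04, edgeR adjusted p = 9.91e-10), RBL1 (1.77 times, 0.82 ± 0.05, edgeR adjusted p = 2.82e-08) and FOXM1 (1.59 times, 0.67 ± 0.05, edgeR adjusted p = 5.54e-08). LIN52 and RBBP4 were 1.31 and 1.30 times higher with SKP2-2, RB1 1.15 times and RBL2 1.14 times. The RBL2 call was marginal (edgeR adjusted p = 0.0403) and was lost without any single SKP2-1 or SKP2-2 library except SKP2-1 replicate 1, reaching an edgeR adjusted p of 0.184 without SKP2-1 replicate 3, and also without NC replicate 2 (0.0543). LIN9 and LIN54 differed by 0.13 ± 0.06 and 0.10 ± 0.05 on the log2 scale and did not pass the test (edgeR adjusted p = 0.0965 and 0.135), although their libraries did not overlap. LIN37 was 1.23 times lower with SKP2-2 in the fit, and its libraries overlapped (edgeR adjusted p = 0.18). SKP2 itself differed between the siRNAs by 1.66 times, lower with SKP2-1 (edgeR adjusted p = 6.46e-06), and its part in the members' differences was not tested.

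The levels were ordered after division by exon length. In NC, MYBL2 was highest at 56.6 ± 0.304 CPM per kb of exon, followed by FOXM1 at 41.1 ± 2.03 (SD, n = 3). RB1 (19.0 ± 1.29), RBBP4 (18.1 ± 0.814) and RBL1 (17.9 ± 0.949) followed, and neighbours in this trio overlapped. LIN54 (6.64 ± 0.248), LIN9 (6.30 ± 0.37) and RBL2 (5.90 ± 0.595) formed a second trio with overlapping neighbours, above LIN52 (4.91 ± 0.0972) and LIN37 (0.597 ± 0.0895). With SKP2-1 the top 3 kept their order, at 26.5 for MYBL2, 18.7 for FOXM1 and 15.9 for RB1, but the span between them narrowed. RB1, RBBP4 (10.2) and RBL1 (8.77) no longer overlapped, and RBL2 (4.94) stood above LIN9 (3.79). With SKP2-2, RBL1 (15.5) stood above RBBP4 (13.3), and RBL2 (5.65) again above LIN9 (4.15). Union exon length counts exons that a cell may not use, so levels of genes with many isoforms are approximate. The last place of LIN37 is uncertain too, since its exons share bases with other genes and reads there may not have been counted.

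**Figure D4:**
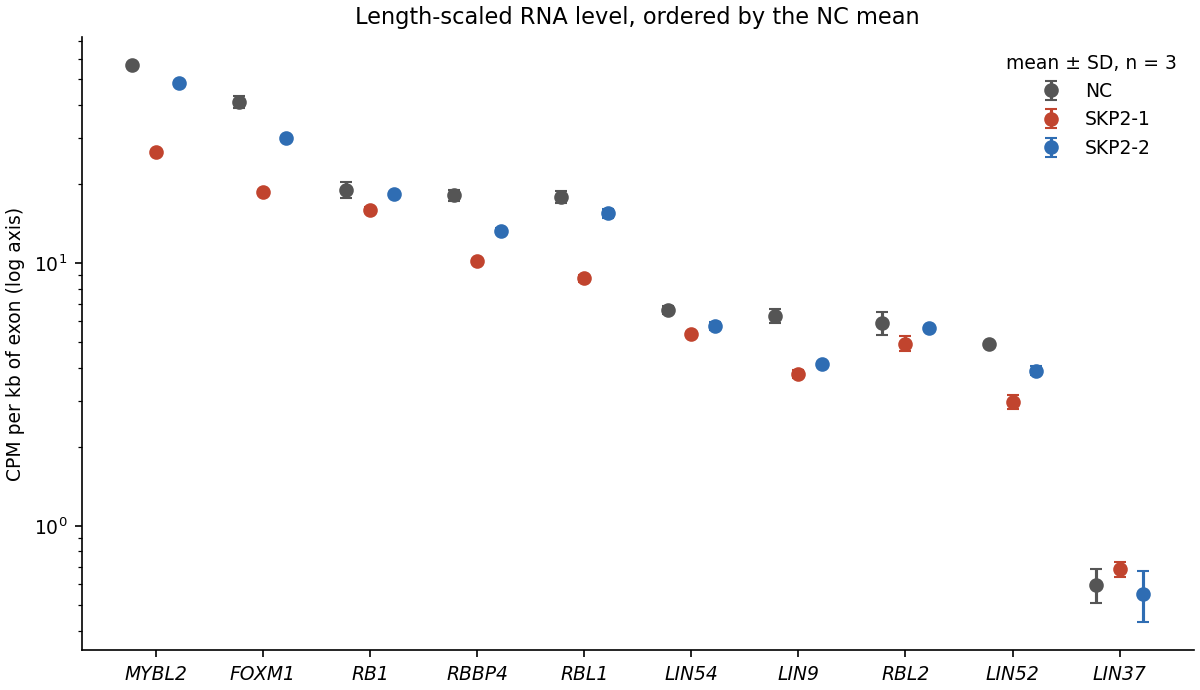
Level of each gene in CPM per kb of exon (log axis), mean ± SD of 3 libraries for NC, SKP2-1 and SKP2-2, ordered by the NC mean. MYBL2 and FOXM1 are highest in all groups, RB1, RBBP4 and RBL1 lie together in NC and apart with SKP2-1, and LIN37 is lowest, under 1.

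The E2F and chromatin partners of the pocket proteins moved in unequal ways. Of 14 listed genes, all tested, 10 fell and 2 rose with SKP2-1, and 10 fell and 1 rose with SKP2-2. Of all genes tested, 20.5% were called lower and 25.0% higher with SKP2-1, and 24.1% lower and 25.2% higher with SKP2-2. The medians of the list were -0.23 and -0.22 on the log2 scale, against 0.02 and 0.03 over all genes tested. The activators E2F1 and E2F2, which RB1 restrains, fell most with SKP2-1. E2F1 went from 103 ± 6.01 CPM in NC to 52.1 ± 1.17 with SKP2-1 (log2 -0.98, edgeR adjusted p = 5.94e-09) and 77.6 ± 2.41 with SKP2-2 (-0.41, edgeR adjusted p = 1.75e-05). E2F2 went from 17.5 ± 0.276 to 4.57 ± 0.276 (-1.94) and 10.2 ± 0.89 CPM (-0.78). Both were higher with SKP2-2 than with SKP2-1, by 0.57 and 1.16 on the log2 scale (edgeR adjusted p = 7.22e-07 and 1.04e-07). E2F3 fell by 0.13 with SKP2-1 (edgeR adjusted p = 0.0351), a call lost in 8 of 18 alternatives, and was at -0.03 with SKP2-2 (edgeR adjusted p = 0.669).

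The repressor E2Fs of DREAM, E2F4 and E2F5, fell with both siRNAs. E2F4 was at 53.8 ± 0.248 CPM in NC, 48.2 ± 1.45 with SKP2-1 and 47.0 ± 0.416 with SKP2-2, falls of 0.16 and 0.20 on the log2 scale (edgeR adjusted p = 0.00954 and 0.00225), the former lost without SKP2-1 replicate 1 (edgeR adjusted p = 0.0604). E2F5 fell by 0.75 and 0.61. The DP subunit TFDP1 fell by 0.20 and 0.22, and TFDP2 fell with SKP2-2 by 0.28 and was at 0.08 with SKP2-1 (edgeR adjusted p = 0.249). E2F4 per E2F1, each per kb, was 0.367 ± 0.0203 in NC, 0.646 ± 0.00499 with SKP2-1 and 0.423 ± 0.0105 with SKP2-2, and RB1 per E2F1 was 0.465 ± 0.0548, 0.766 ± 0.0334 and 0.590 ± 0.0219. Neither ratio overlapped between groups (exact permutation p = 0.1, the smallest possible).

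The paralogs of MYBL2, MYBL1 and MYB, fell with both siRNAs, and that of RBBP4, RBBP7, with SKP2-1. MYBL1 (A-Myb) went from 82.4 ± 3.0 CPM in NC to 49.5 ± 1.4 and 49.8 ± 1.03 (log2 -0.73 each, edgeR adjusted p = 3.85e-08 and 3.73e-08). MYB, at 2.89 ± 0.0517 CPM in NC, fell more with SKP2-2 (0.847 ± 0.23 CPM) than with SKP2-1 (1.82 ± 0.153 CPM; edgeR adjusted p between them = 0.000141), where MYBL2 was higher with SKP2-2. RBBP7, which can stand in for RBBP4 in chromatin complexes, fell by 0.44 with SKP2-1 (edgeR adjusted p = 3.41e-05) and was at -0.07 with SKP2-2 (edgeR adjusted p = 0.355). The deacetylase HDAC2 fell with both (0.26 and 0.23). HDAC1 rose with SKP2-2 by 0.28 (edgeR adjusted p = 0.0011) and was at 0.12 with SKP2-1 (edgeR adjusted p = 0.102). The corepressor SIN3B rose with SKP2-1 by 0.29 (edgeR adjusted p = 0.0264), a call lost in 9 of 18 alternatives. With SKP2-2 SIN3B was at 0.20 (edgeR adjusted p = 0.109), passing in 3 of 18 alternatives, and it did not pass between the siRNAs (-0.10, edgeR adjusted p = 0.408). DYRK1A, the kinase of LIN52, was at 75.3 ± 4.71 CPM in NC, 82.7 ± 2.16 with SKP2-1 and 67.9 ± 1.87 with SKP2-2, and NC and SKP2-1 libraries overlapped.

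The kinases that release pocket proteins fell, whereas the D cyclins diverged. Of 14 listed G1 cyclins, kinases and inhibitors 12 were tested. CDKN2A and CDKN2B, inhibitors of CDK4 and CDK6, had 0 counts in every library, where 3 counts would be 0.0602 to 0.0846 CPM. With SKP2-1, 8 fell and 2 rose (median -0.46), and with SKP2-2, 8 fell and 3 rose (median -0.27). Over all genes tested, 20.5% and 24.1% were called lower and 25.0% and 25.2% higher, with medians of 0.02 and 0.03. Rises were thus no more common in this list than over all genes. CDK6 fell from 314 ± 23.6 CPM in NC to 149 ± 0.594 with SKP2-1 (log2 -1.08, edgeR adjusted p = 3.09e-09) and 78.4 ± 0.932 with SKP2-2 (-2.0, edgeR adjusted p = 2.6e-11). CDK2 fell by 0.87 and 0.50, CDK4 by 0.22 and 0.20 (the latter lost without SKP2-2 replicate 1 or 2, edgeR adjusted p = 0.0542 and 0.0517), CCNE1 by 0.86 and 1.49 and CCNE2 by 1.70 and 0.95.

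CCND1, cyclin D1, fell with SKP2-1 (646 ± 2.75 CPM against 884 ± 37.9 in NC) and rose with SKP2-2 (1300 ± 74.0 CPM). CCND2 rose with both, from 12.3 ± 0.639 to 26.4 ± 1.24 and 31.5 ± 2.98 CPM (log2 1.10 and 1.36, edgeR adjusted p = 8.77e-08 and 1.13e-08). CCND3 was at 152 ± 14.5 CPM in NC, 172 ± 1.67 with SKP2-1 and 131 ± 5.89 with SKP2-2. Among the inhibitors, CDKN1B (p27), whose protein SKP2 is known to mark for degradation, rose at the RNA level with SKP2-2 by 0.50 (edgeR adjusted p = 3.81e-05) and was at -0.06 with SKP2-1 (edgeR adjusted p = 0.527). CDKN1A did not pass the test (-0.04 and -0.23, edgeR adjusted p = 0.755 and 0.0784), although it did with SKP2-2 in 5 of 18 alternatives. CDKN2C fell by 0.77 and 0.30 and CDKN2D by 0.46 and 1.61.

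The genes that these complexes are known to bind fell almost throughout, in 2 lists. Like the members and the other lists, these were chosen with earlier results of these data known. Over all genes tested, 20.5% were called lower with SKP2-1 and 24.1% with SKP2-2, with median log2 fold changes of 0.02 and 0.03. Of 32 G2/M genes bound by MuvB with MYBL2 or FOXM1, 32 fell with SKP2-1 and 31 with SKP2-2, with medians of -1.48 and -1.02 on the log2 scale. The exception was UBE2C, a ubiquitin-conjugating enzyme of the anaphase-promoting complex, with SKP2-2 (log2 -0.81, edgeR adjusted p = 0.057), which passed in 6 of 18 alternatives, among them the fit without NC replicate 1 and SKP2-2 replicate 3 (-0.82, edgeR adjusted p = 7.37e-09). The 4 genes named next were those for which the larger edgeR adjusted p of both siRNAs was smallest, so they do not stand for the list. With SKP2-2 the log2 fold changes of KIF14 (-2.57), NEK2 (-1.97) and KIF23 (-1.71) lay well below the list median, and that of CCNA2 (-1.05) near it. The mitotic kinesin KIF14 went from 154 ± 9.03 CPM in NC to 47.7 ± 1.46 with SKP2-1 and 26.0 ± 1.23 with SKP2-2, and KIF23 from 180 ± 7.27 to 62.4 ± 3.61 and 55.0 ± 0.676. Cyclin A2 (CCNA2) went from 155 ± 6.25 to 62.4 ± 1.43 and 74.7 ± 2.45 CPM, and the centrosomal kinase NEK2 from 73.3 ± 1.16 to 23.0 ± 1.38 and 18.7 ± 2.02. Between the siRNAs, 26 of the 32 were higher with SKP2-2, as FOXM1 and MYBL2 were, and 3 were lower: KIF14 (log2 -0.88), KIF23 (-0.18) and NEK2 (-0.30). The KIF23 difference missed the threshold without SKP2-1 replicate 1 (edgeR adjusted p = 0.0536). Of all genes tested, 25.2% were called higher with SKP2-2 than with SKP2-1 and 25.3% lower.

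Of 26 G1/S genes bound by E2F with pocket proteins, 25 fell with SKP2-1 and 23 with SKP2-2, with medians of -1.05 and -0.56, and none rose. Over all genes tested, 20.5% and 24.1% were called lower and 25.0% and 25.2% higher, with medians of 0.02 and 0.03. The genes CDC6, MCM7 and MCM2 were picked by the same rule as in the G2/M list. The replication licensing factor CDC6 went from 145 ± 7.52 CPM in NC to 59.5 ± 1.16 with SKP2-1 and 72.2 ± 3.35 with SKP2-2. The helicase subunits MCM7 (362 ± 7.22, 178 ± 1.3 and 210 ± 4.61 CPM) and MCM2 (133 ± 6.03, 69.1 ± 1.17 and 80.5 ± 1.44 CPM) fell with both. With SKP2-1 the exception was E2F7, an atypical repressor E2F (226 ± 14.9 CPM in NC, 237 ± 1.46 with SKP2-1, edgeR adjusted p = 0.324), which passed the test as a rise without NC replicate 3 (log2 0.12, edgeR adjusted p = 0.0482). With SKP2-2 the exceptions were CDT1, MCM5 and UHRF1 (log2 -0.35, -0.19 and -0.17, edgeR adjusted p = 0.507, 0.19 and 0.43), whose NC libraries spread widely (27.4 ± 13.0, 118 ± 17.2 and 90.8 ± 18.9 CPM). MCM5 passed without NC replicate 3 (log2 -0.29, edgeR adjusted p = 0.0415), CDT1 was at 0.08 without NC replicate 1, and the fall of CDT1 with SKP2-1 missed the threshold without any 1 SKP2-1 library (edgeR adjusted p = 0.0525 to 0.0572). Between the siRNAs, 23 of the 26 were higher with SKP2-2 and 2 were lower, E2F7 (log2 -0.68) and the histone mRNA binding protein SLBP (-0.26). The shares of all genes tested were 25.2% higher and 25.3% lower in this comparison. The exceptions named for both lists were chosen after their values were seen.

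**Figure D5:**
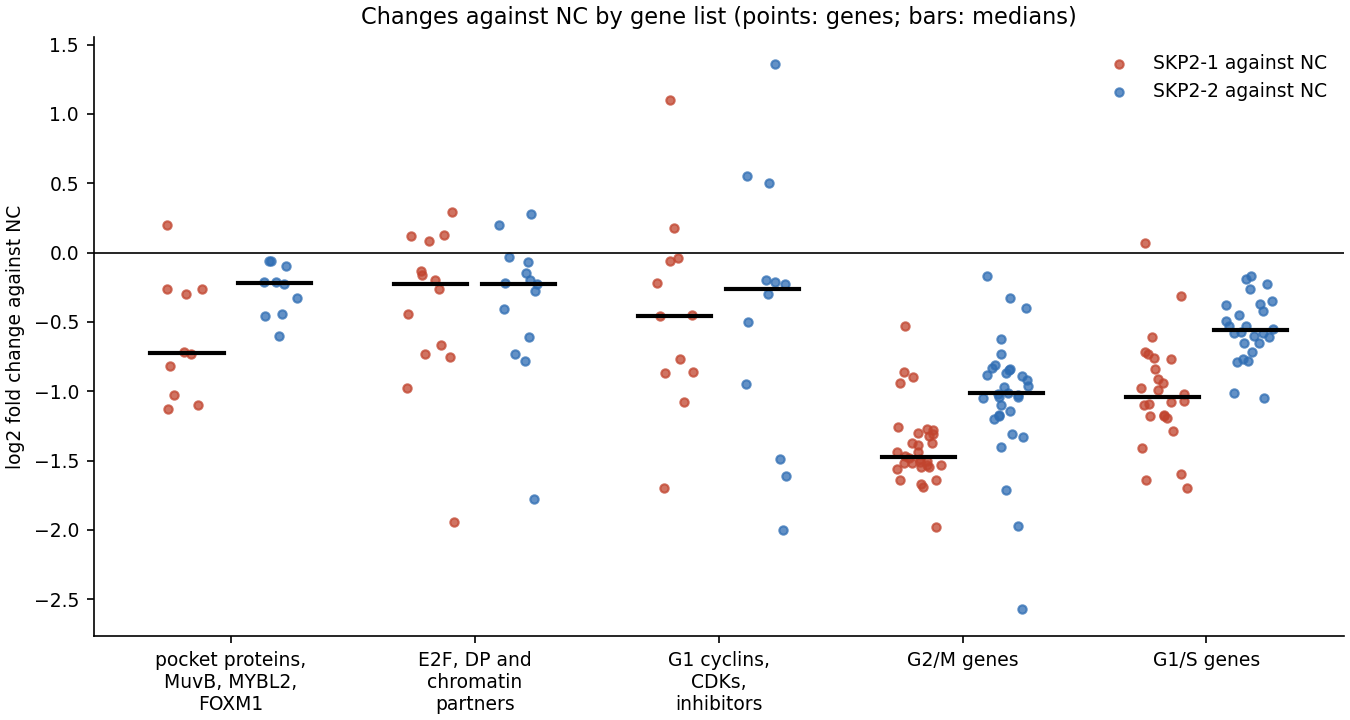
Log2 fold change against NC (y axis) of each tested gene (points) with the median (bar) for the 10 genes and 4 lists of related genes, for SKP2-1 and SKP2-2. The G2/M genes have medians of -1.48 and -1.02 and the G1/S genes of -1.05 and -0.56, below the medians of the 10 genes (-0.73 and -0.22) and of the E2F partners and G1 regulators.

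Likeness over the 9 libraries was the root mean square difference of log2 CPM, after subtracting each gene's mean over the NC libraries. The closest genes were sought among 11308 other protein-coding genes with a symbol and a mean of at least 2 CPM. For FOXM1 these were CENPN (0.0359), STARD4 (0.0416) and ZWINT (0.0428). For MYBL2 they were PHGDH (0.0430), BLMH (0.0638) and GSTCD (0.0688), and for RBL1 PHGDH (0.0484), WEE1 (0.0489) and SENP1 (0.0536). RB1 was closest to RBM6 (0.0273), SNRNP200 (0.0312) and SOS1 (0.0328), and RBL2 to NANP (0.0443), SOS1 (0.0457) and TAF1A (0.0466). PHGDH, with differences of -1.04 and -0.23 from NC, thus stood next to both MYBL2 and RBL1. The 9 libraries form 3 groups, so this likeness is mostly that of 3 group means.

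The promoter letters were set beside the changes as a description without a test. The 4 members with E2F letters in a window, RBL1, LIN9, LIN52 and RBBP4, fell by 0.72 to 1.03 on the log2 scale with SKP2-1. Of the 4 members whose windows held none, MYBL2 fell by 1.10, LIN54 by 0.30 and RBL2 by 0.26, and LIN37 did not pass the test. With SKP2-2 the members with E2F letters fell by 0.21 (RBL1), 0.33 (LIN52), 0.44 (RBBP4) and 0.60 (LIN9). Of those without, MYBL2 fell by 0.23 and LIN54 by 0.21, while RBL2 (log2 -0.06) and LIN37 (-0.10) did not pass the test. The ranges of members with and without the letters thus overlapped.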

How the data were processed

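Total RNA was sequenced on an Illumina instrument from 9 samples, 3 per group. The deposited values are raw counts per Ensembl gene, 1 table per sample. Trim Galore 0.4.1 and FastQC 0.11.2 are named in the submitters' processing notes, as are HTSeq 0.6.1, STAR and DESeq2 1.16.1, without their roles. Build, annotation and counting strand are not given in the sources used here. HTSeq summary lines were left out of library totals (no feature 5.34 to 5.92%, ambiguous 3.87 to 3.97%). Of 58395 identifiers, 57754 took symbols from a name table and 521 from GENCODE 29, which also gave GRCh38 coordinates and exon lengths.

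edgeR 4.0.16 (R 4.3.3) was fitted to all 9 libraries with group as the only term: filterByExpr (minimum count 10, minimum total 15), TMM scaling, robust quasi-likelihood F tests, two-sided, Benjamini-Hochberg adjustment over 16575 genes, threshold 0.05. Levels are CPM at TMM-scaled library sizes, with the SD over 3 libraries. Common biological variation was 0.0891. Ratios were compared by exact permutation tests. The fit was checked on simulated counts.

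Alternatives were RLE or library-size scaling, other count filters, DESeq2 1.42.0, limma-voom (limma 3.58.1), fits of the compared groups only, a replicate block and left-out libraries, 18 in all. All members, SKP2, SLC39A7 and any gene of the partner and G1 lists could be named. The 2 target lists gave 4 genes each with the smallest larger adjusted p of both siRNAs, of which 1 is not reported here, and 5 members gave their 3 nearest genes. Members and lists were chosen with earlier results of these data known. Replicate numbers did not pair the samples.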

Additional observations from a re-analysis of the deposited data

Results flagged for a closer look

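For 3 regulators of pocket protein or MuvB phosphorylation the siRNAs moved RNA in opposite directions, each past the edgeR threshold against NC and between the siRNAs. CCND1, cyclin D1, had a log2 fold change of -0.45 with SKP2-1 and 0.55 with SKP2-2, a difference of 1.0 (edgeR adjusted p = 5.05e-09), and all 3 calls held in the 18 alternatives. CCND3, cyclin D3, had 0.18 with SKP2-1 and -0.21 with SKP2-2, a difference of -0.39 (edgeR adjusted p = 0.000152), and NC and SKP2-2 libraries overlapped. DYRK1A had 0.13 with SKP2-1 and -0.15 with SKP2-2, a difference of -0.28 (edgeR adjusted p = 0.000465), and NC and SKP2-1 libraries overlapped. The differences between the siRNAs held in all 18 alternatives for CCND3 and DYRK1A too, but the rise with SKP2-1 missed the threshold in 11 and 14 of them, and the fall with SKP2-2 in 2 and 6.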

How the results depend on the processing

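Of 540 checks of the members (10 genes, 3 comparisons, 18 alternatives), 523 kept direction and call, 9 lost and 7 gained a call and 1 changed direction, LIN37 with SKP2-2 (0.02 without SKP2-2 replicate 1, -0.25 to 0.02 without 1 library each). All 9 lost calls were of RBL2, among them that between the siRNAs with DESeq2 (DESeq2 adjusted p = 0.0627). No count of members moved by over 1.5 times. LIN9 passed the test between the siRNAs with library-size scaling (adjusted p = 0.0271), with the 1 CPM filter (0.035) and without NC replicate 1 (0.0471), and LIN54 with library-size scaling (0.0292). Replicate numbers did not pair the samples: same-numbered libraries correlated at -0.88 to 0.19, so the replicate block is given only here. With the replicate block RBL2 lost its call between the siRNAs (adjusted p = 0.0865), the partners called higher with SKP2-1 went from 2 to 0 and the G1 regulators from 2 to 1. That partner count was 1 with RLE and DESeq2, 0 with the 1 CPM filter and with only the compared groups, 1 without both NC replicate 1 and SKP2-2 replicate 3, and 0 to 3 without 1 library each (3 without NC replicate 3). The G1 regulator count was 1 with RLE, DESeq2, the 1 CPM filter and only the compared groups, and 1 to 2 without 1 library each. Partners called higher with SKP2-2 went from 1 to 2 with no filter and without both named libraries, and 1 to 2 without 1 library each; G1/S genes called higher with SKP2-1 were 0 to 1. SLC39A7 with SKP2-1 turned to -0.01 with RLE, DESeq2 and without both libraries, -0.03 with the 1 CPM filter, -0.06 with only the compared groups, and was -0.03 to 0.02 without 1 library each. With SKP2-2 it passed the test with library-size scaling (0.13, adjusted p = 0.0138), and between the siRNAs with that scaling (0.12, adjusted p = 0.0238), only the compared groups (0.08, 0.0318) and without both libraries (0.11, 0.0173). CDKN1A with SKP2-1 turned to 0.06 without NC replicate 1 and without both (-0.1 to 0.06 without 1 library each), E2F3 with SKP2-2 to 0.02 with library-size scaling and 0.00 without NC replicate 3 (-0.08 to 0.00), and CDT1 with SKP2-2 to 0.08 without NC replicate 1 (-0.65 to 0.08). With only the compared groups, 44.0% of calls with SKP2-1 were higher, against 55.0%. The causes were not tested. Among the members, depth limits LIN37, at 48 to 92 counts per library, most.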
